A study of Mus musculus with 6 samples.

Results

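The genes described are 8 Toll-like receptors with the co-receptor Cd14 and the adaptor Myd88, taken as the rows of the deposited FPKM table whose name is one of 10 listed symbols. All 10 were present among 25572 genes, and all 10 passed the filter on low values (0.5 FPKM or more on average). FPKM is a fragment count scaled by gene length and library depth, so levels of different genes can be set side by side. The libraries came from hind limb skeletal muscle of 3 mice lacking histidine decarboxylase (labelled HDCKO, genotype Hdc-/-) and 3 wild-type mice (WT), each taken 3 days after surgery that made the hind limb ischaemic. All 6 mice had the surgery per the labels. Hdc-/- is a whole-animal genotype as labelled. The sources used here do not give age, strain, sex, the muscle taken or the leg. Each library is 1 mouse per the labels.

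Toll-like receptors bind molecules of microbes and of damaged tissue. TLR2 pairs with TLR1 or TLR6 at the cell surface for lipoproteins, and TLR4 with its partner MD-2 recognises lipopolysaccharide that CD14 hands over. TLR7, TLR8, TLR9 and TLR13 sit in endosomes and read nucleic acids: single-stranded RNA for TLR7 and TLR8, unmethylated CpG DNA for TLR9 and bacterial ribosomal RNA for TLR13. All of the listed receptors signal through MyD88, which recruits IRAK kinases and leads to NF-kappaB activity and transcription of cytokines. In muscle after injury these genes are known mostly from infiltrating neutrophils, monocytes and macrophages, although fibres, endothelial cells and fibroblasts also carry some of them, and TLR9 and TLR7 are known from B cells and plasmacytoid dendritic cells.

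Tlr1 (chr5:65082022-65090941) and Tlr6 (chr5:65108704-65203497) lie 17.8 kb apart on the minus strand of GRCm39 and share sequence, which bears on how far their values can be separated. Of the 45 pairs of the 10 genes, only Tlr1 and Tlr6 had any window of 100 bases in common across their GENCODE transcripts. Such windows were 7.58% of those of Tlr1 and 5.34% of those of Tlr6. The longest identical run is 229 bases of coding sequence, at chr5:65082880-65083108 in Tlr1 and chr5:65111171-65111399 in Tlr6, and is shown because a fragment inside it cannot be placed in either gene:
Tlr1 and Tlr6, shared run: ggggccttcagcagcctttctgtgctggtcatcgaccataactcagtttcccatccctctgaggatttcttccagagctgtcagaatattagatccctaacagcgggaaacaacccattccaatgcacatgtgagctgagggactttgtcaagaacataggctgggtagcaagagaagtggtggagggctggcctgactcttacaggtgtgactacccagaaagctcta

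Promoter sequence was available from RefSeq (GRCm38.p6) for 7 of the 10 genes, as 9 windows, and the 250 bases before the start were searched on both strands. Tlr4, Tlr7 and Cd14 were not matched. The motifs were the NF-kappaB consensus, PU.1 (GAGGAAG), AP-1 (TGANTCA), C/EBP (TTGCNNAA) and IRF (TTCNNTTTC). The consensus of NF-kappaB was found before Tlr2 only, where 7.25% of all 32851 windows held it. PU.1 letters, present in 10.6% of all windows, were found before Tlr1, Tlr9 and Tlr13. AP-1 letters (6.75% of windows) were found before Tlr9, C/EBP letters (9.56%) before Tlr6 and Tlr8, and IRF letters (7.13%) before Myd88, Tlr6 and Tlr8. A match describes letters and not a bound site. The windows of 4 genes are shown as examples chosen after the values were seen: the only NF-kappaB match (Tlr2), an endosomal receptor that passed as lower (Tlr13), one that did not (Tlr9) and the shared adaptor (Myd88), with every motif match in capitals. They are chr3:83841609-83841858 (minus strand) for Tlr2, where overlapping matches fill 1 run, chrX:106143025-106143274 (plus) for Tlr13, chr9:106222348-106222597 (plus) for Tlr9 and chr9:119340019-119340268 (minus) for Myd88:
Tlr2, NF-kappaB consensus: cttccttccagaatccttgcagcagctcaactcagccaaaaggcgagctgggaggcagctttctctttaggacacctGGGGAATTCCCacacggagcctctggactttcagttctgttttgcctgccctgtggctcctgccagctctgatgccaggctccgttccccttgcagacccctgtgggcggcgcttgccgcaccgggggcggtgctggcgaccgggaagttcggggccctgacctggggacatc
Tlr13, PU.1: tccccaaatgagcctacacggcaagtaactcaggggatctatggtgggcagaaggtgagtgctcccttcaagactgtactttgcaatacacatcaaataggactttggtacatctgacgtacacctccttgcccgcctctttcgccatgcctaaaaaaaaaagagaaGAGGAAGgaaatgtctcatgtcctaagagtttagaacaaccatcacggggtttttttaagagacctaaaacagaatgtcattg
Tlr9, PU.1 then AP-1: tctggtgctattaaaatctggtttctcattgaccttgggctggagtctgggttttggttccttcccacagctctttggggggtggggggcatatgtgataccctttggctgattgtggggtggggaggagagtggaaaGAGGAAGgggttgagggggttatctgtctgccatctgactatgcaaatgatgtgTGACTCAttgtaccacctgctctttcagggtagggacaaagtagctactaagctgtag
Myd88, IRF on the opposite strand: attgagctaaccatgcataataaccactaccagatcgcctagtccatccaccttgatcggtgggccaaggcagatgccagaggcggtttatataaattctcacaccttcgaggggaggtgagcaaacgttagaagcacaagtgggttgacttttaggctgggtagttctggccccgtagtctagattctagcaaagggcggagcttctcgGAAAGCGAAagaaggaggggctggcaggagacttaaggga

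The libraries differed in ways that touch these genes. The FPKM step of 1 fragment put their depth at an estimated 29500000 to 37700000 fragments. Hdc was 1.22 to 2.52 FPKM in HDCKO and 7.49 to 8.17 in WT, so transcript of the targeted gene was lower but present in every HDCKO library; the sources used here do not state which part of the gene was deleted. Muscle fibre markers were present in every library, at a summed 37577 to 65870 FPKM in HDCKO and 344 to 1312 in WT. All 8 passed as higher in HDCKO, as 17.8% of all genes tested did. Whether the same muscle, or the operated leg, was taken from every mouse cannot be told from the sources used here, so the tissue sampled and the genotype cannot be told apart. Summed B cell markers were 0.492, 64.6 and 187 FPKM in HDCKO replicates 1, 2 and 3 and 0.860 to 1.76 in WT. T and NK cell markers were 0.105, 27.9 and 45.9 FPKM in HDCKO and 0.823 to 1.66 in WT, so lymphocyte transcripts were high in HDCKO replicates 2 and 3 alone. Neutrophil markers were a summed 32.9 to 76.5 FPKM in HDCKO and 2463 to 14478 in WT, highest in WT replicate 2. Of 9 tested, 9 passed as lower in HDCKO, where 42.6% of all genes tested did. Macrophage markers were 152, 466 and 725 FPKM in HDCKO replicates 1, 2 and 3 and 632 to 1307 in WT, lowest in WT replicate 2. Of these, 5 of 10 passed as lower, near the share of all genes. Xist was at most 0.0948 FPKM and Ddx3y, a Y-linked gene, at least 17.3 FPKM in every library, so the X-linked receptors Tlr7, Tlr8 and Tlr13 were not compared across a mix of sexes. In bulk tissue, fewer cells of a type and less RNA per cell cannot be told apart.

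The comparison asked whether muscle without histidine decarboxylase held other levels of these receptors than wild-type muscle. It held less of most. Transcripts of Cd14, of the 4 surface receptors, of the endosomal receptor Tlr13 and of the adaptor Myd88 fell, from about 5.46-fold for Myd88 to 17.6-fold for Cd14 in mean FPKM. Tlr7 and Tlr8 were lower in 2 of 3 and in 3 of 3 HDCKO mice and missed the threshold, and Tlr9 went no common way. Of the 10 genes, 7 passed as lower and 0 as higher (limma on log2(FPKM + 0.5), adjusted p under 0.05 over 13288 genes), where 42.6% of all genes tested passed as lower and 17.8% as higher. For 8 of 10 the groups did not overlap with HDCKO lower, against 51.4% of all genes tested. Their median log2 change was -2.66, and that of all genes was -0.50. With median-of-ratios scaling the median of all genes was -0.04, 26.3% of all genes passed as lower, and the same 7 genes passed. An exact two-sided permutation test gave p = 0.1 for each of the 8 genes without overlap, the smallest value that 3 against 3 mice allow.

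**Figure D1:**
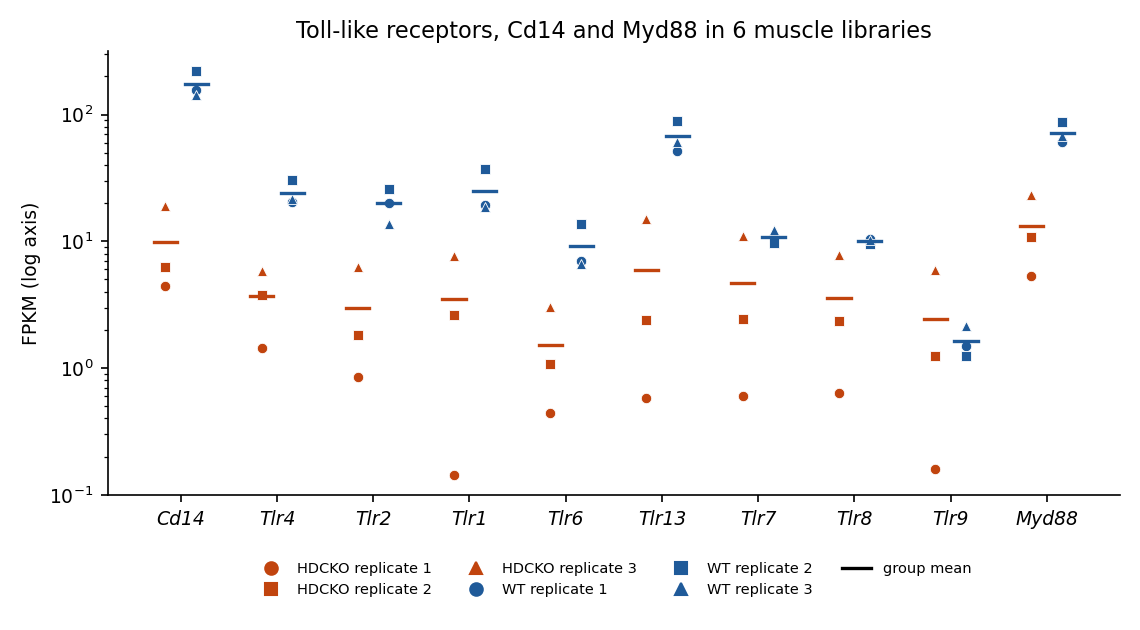
FPKM (log axis) of the 10 genes in each library, with HDCKO in orange, WT in blue, a symbol for each replicate number and a bar for each group mean. Cd14 lies between 4.41 and 18.9 FPKM in HDCKO and between 142 and 221 in WT, while the groups overlap for Tlr7 and Tlr9.

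Cd14, which hands lipopolysaccharide to TLR4 and MD-2, was the most abundant of the 10 in WT. Its fall and that of Tlr13 were the largest of the 10 with all 6 libraries in the fit, and which of the pair fell more depended on the setting (Tlr13 -4.48 and Cd14 -4.38 with a pseudocount of 0.1). Cd14 had 4.41, 6.22 and 18.9 FPKM across HDCKO mice 1 to 3 against 156, 221 and 142 across WT mice 1 to 3. Every HDCKO library was below every WT library, and the highest HDCKO value was 10.9% of the WT mean. The means were 9.85 ± 7.91 and 173 ± 41.9 FPKM (SD, n = 3 each), a log2 change of -4.30 (SE 0.52, limma adjusted p = 0.00192). The gene is a single exon of 1732 bases in the merged GENCODE models, at chromosome 18, 36858120 to 36859851, minus strand, in GRCm39. Cd14 passed as lower in every setting that kept more than 1 HDCKO mouse, with a log2 change from -4.89 to -3.79.

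Tlr4, the lipopolysaccharide receptor, fell less than its co-receptor. Tlr4 had 1.45, 3.80 and 5.80 FPKM across HDCKO mice 1 to 3 against 20.4, 30.3 and 21.6 across WT mice 1 to 3. The groups stood apart, and the WT libraries were close to each other. The log2 change was -2.69 (SE 0.44, limma adjusted p = 0.00501). Within a library, Cd14 was 3.05, 1.64 and 3.26 times Tlr4 in FPKM in the HDCKO mice and 7.63, 7.28 and 6.58 times in the WT mice. This ratio was chosen after its values were seen, and its ranges in HDCKO and WT did not overlap. Ly96, which encodes MD-2, did not differ from Tlr4 in this way: its ratio to Tlr4 was 0.2996 to 1.07 in HDCKO and 0.587 to 0.891 in WT.

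TLR2 and its partners TLR1 and TLR6 read bacterial lipoproteins, and all 3 genes were lower in HDCKO. Tlr2, with the NF-kappaB letters printed above before its start, had 0.846, 1.81 and 6.23 FPKM across HDCKO mice 1 to 3 against 20.2, 25.8 and 13.7 across WT mice 1 to 3. Its HDCKO libraries lay below all WT libraries (log2 change -2.84, SE 0.60, limma adjusted p = 0.0104). Tlr1 had 0.143, 2.61 and 7.68 FPKM across the HDCKO mice against 19.3, 37.0 and 18.8 across the WT mice. Tlr1 in HDCKO replicate 1 rested on an estimated 17 fragments, far fewer than the 260 to 4648 of the other libraries. The change of Tlr1 was -3.26 on the log2 scale (SE 0.90, limma adjusted p = 0.0232). It no longer passed without HDCKO replicate 2 (adjusted p = 0.0629) or without WT replicate 1, 2 or 3 (adjusted p = 0.0580, 0.0751 and 0.0596), and its adjusted p ran from 5.5e-04 to 0.0751 over all settings.

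Tlr6, the other partner of TLR2, was the scarcest surface receptor in WT. Tlr6 had 0.438, 1.07 and 3.05 FPKM across HDCKO mice 1 to 3 against 7.004, 13.7 and 6.599 across WT mice 1 to 3. The groups did not overlap (log2 change -2.39, SE 0.53, limma adjusted p = 0.0124). Tlr1 was 2.69 to 2.85 times Tlr6 in the WT libraries and 2.43 and 2.52 times in HDCKO replicates 2 and 3, but 0.327 times in HDCKO replicate 1, the library with few Tlr1 fragments. The sources used here do not say how fragments in the shared run were assigned, so the split between the 2 genes is uncertain.

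Among endosomal receptors, Tlr13 parted from the rest. Tlr13, which reads bacterial ribosomal RNA, had 0.579, 2.39 and 14.98 FPKM across HDCKO mice 1 to 3 against 51.4, 89.7 and 61.1 across WT mice 1 to 3. It was the most abundant receptor in every WT library, and no HDCKO library reached the lowest WT value. The means were 5.98 ± 7.84 and 67.4 ± 19.9 FPKM (SD, n = 3 each), with a log2 change of -4.18 (SE 0.93, limma adjusted p = 0.0123). Tlr13 lies on chromosome X, 105186810 to 105204533, plus strand, in GRCm39.

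Tlr7 and Tlr8, neighbours 39.4 kb apart on chromosome X that read single-stranded RNA, moved alike. Tlr7 had 0.599, 2.45 and 11.002 FPKM across HDCKO mice 1 to 3 against 10.5, 9.63 and 12.3 across WT mice 1 to 3. HDCKO replicate 3 lay inside the WT range, and the other HDCKO libraries lay below it. The log2 change of Tlr7 was -1.76 (95% interval -3.70 to 0.19, limma adjusted p = 0.0982), and the exact permutation p was 0.3. Tlr8 had 0.631, 2.34 and 7.76 FPKM across the HDCKO mice against 10.4, 9.46 and 10.3 across the WT mice. All HDCKO values of Tlr8 were below all WT values, with a log2 change of -1.82 (95% interval -3.46 to -0.18, limma adjusted p = 0.0557). Without HDCKO replicate 3 both passed as lower, at log2 changes of -2.65 (adjusted p = 0.00327) and -2.56 (adjusted p = 0.00275), where 54.7% of all genes passed as lower. Tlr8 also passed with a pseudocount of 1 (adjusted p = 0.0488). The ratio of Tlr7 to Tlr8 was 0.949 to 1.42 in HDCKO and 1.01 to 1.20 in WT.

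Tlr9, the receptor for CpG DNA, was the exception among the listed receptors. Tlr9 had 0.159, 1.25 and 5.92 FPKM across HDCKO mice 1 to 3 against 1.49, 1.24 and 2.15 across WT mice 1 to 3. Its lowest and its highest value were both in HDCKO mice, so the groups overlapped fully. The log2 change was -0.10 (95% interval -2.01 to 1.81, limma adjusted p = 0.914; exact permutation p = 0.9), an interval too wide to say that the groups were alike, and the sign turned with median-of-ratios scaling (0.20). The B cell marker Cd79a was also lowest in HDCKO replicate 1 and highest in replicate 3, 0.0870, 31.5 and 87.1 FPKM, and was 0.269 to 0.592 FPKM in WT. That order over the HDCKO mice was shared by all 10 listed genes, so it was not particular to Tlr9. Summed plasmacytoid dendritic cell markers were 0.884, 4.60 and 6.83 FPKM in HDCKO and 0.275 to 0.367 in WT. Only 2 of these 4 markers passed the filter on low values. Siglech, 1 of them, had 0.690, 3.09 and 2.34 FPKM in HDCKO replicates 1, 2 and 3, so it was highest in replicate 2. The part of these cells in Tlr9 was not tested. Tlr3, a receptor outside the list, also had its lowest and highest value in HDCKO mice. It had 0.872, 1.95 and 8.08 FPKM across HDCKO mice 1 to 3 and 4.91 to 4.997 in WT.

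Myd88, the adaptor shared by these receptors, had the highest mean of the 10 in HDCKO and fell with them. Myd88 had 5.30, 10.9 and 23.1 FPKM across HDCKO mice 1 to 3 against 60.8, 86.6 and 67.2 across WT mice 1 to 3. The groups stood apart, with a log2 change of -2.62 (SE 0.50, limma adjusted p = 0.00786). Its ratio to Tlr4 was nearly level, 2.87 to 3.99 in HDCKO and 2.86 to 3.10 in WT. Myd88 lies on chromosome 9, 119165000 to 119170486, minus strand, in GRCm39, and 628 of its exon bases overlap Acaa1a, a peroxisomal thiolase gene on the other strand. The sources used here do not say whether counting used strand. Acaa1a had 14.1 to 20.4 FPKM in HDCKO and 18.2 to 24.8 in WT, and its log2 change was -0.24 (limma adjusted p = 0.317).

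**Figure D2:**
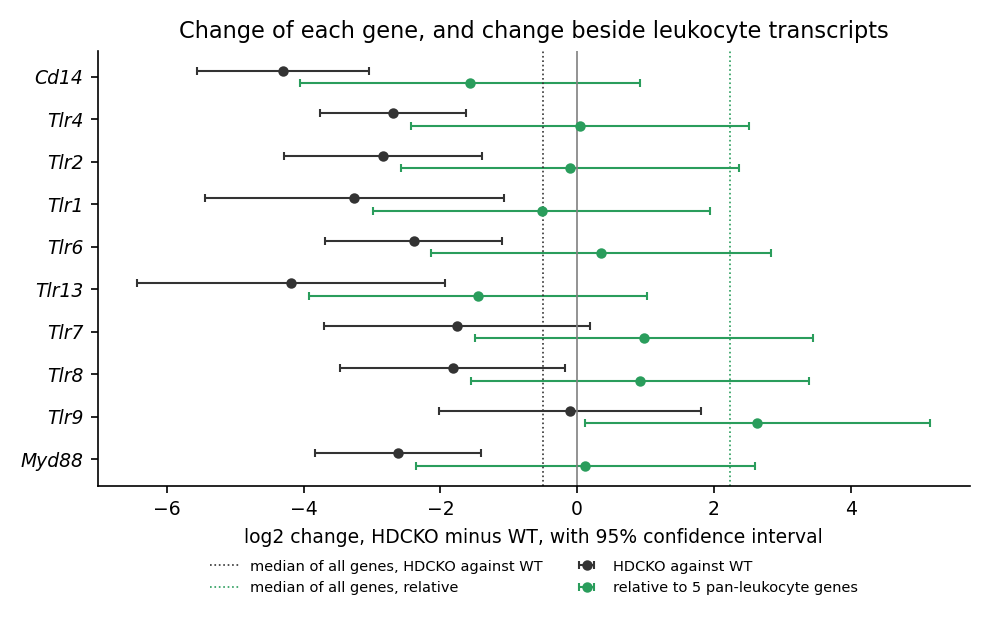
Log2 change of each gene (HDCKO minus WT) with its 95% confidence interval from limma, in black on the deposited values and in green after the mean log2 level of 5 pan-leukocyte genes was subtracted from each library. Dotted lines mark the median of all genes tested, -0.50 and 2.24. In black 7 of 10 genes pass as lower, and in green 0 of 10 pass.

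In these 10 genes the HDCKO mice differed from each other, as a ratio, far more than the WT mice. For all 10 genes replicate 1 was lowest and replicate 3 highest among the HDCKO libraries. The ratio of highest to lowest HDCKO value ran from 4.004 for Tlr4 to 53.7 for Tlr1, and was 37.2 for Tlr9 and 25.9 for Tlr13. In WT the same ratio ran from 1.10 for Tlr8 to 2.08 for Tlr6. As a share of the WT mean, Tlr7 was 5.53%, 22.6% and 102% in HDCKO replicates 1, 2 and 3, while Cd14 was 2.55%, 3.60% and 10.9%. Summed pan-leukocyte genes (Ptprc, Cd53, Laptm5, Coro1a and Itgb2) stood at 2.71%, 21.3% and 56.5% of their WT mean, and monocyte markers at 2.13%, 7.31% and 21.8%. Of the pan-leukocyte genes 2 of 5 passed as lower, near the 42.6% of all genes tested, and of the monocyte markers 5 of 5. Neutrophil markers were at 0.472%, 1.10% and 0.970%. The part of these cells in the spread was not tested.

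**Figure D3:**
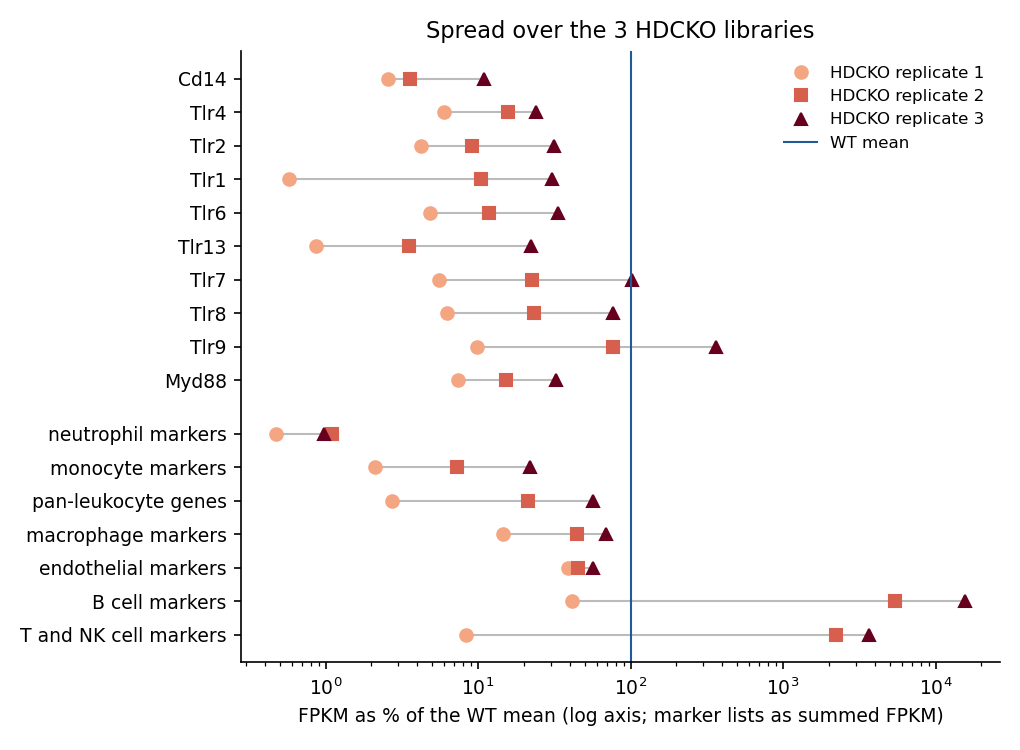
Level of each gene, and summed level of marker lists, in the 3 HDCKO libraries as a percentage of the WT mean (log axis, blue line at the WT mean). Replicate 3 is highest for all 10 genes, at 10.9% for Cd14 and 364% for Tlr9, and neutrophil markers stay between 0.472% and 1.10%.

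The WT mice held a split of their own. The 7 genes that passed were all highest in WT replicate 2, at 1.35 (Myd88) to 2.02 (Tlr6) times the mean of the other WT libraries. Tlr7, Tlr8 and Tlr9 were all lowest in that mouse, at 0.842, 0.915 and 0.683 times. Neutrophil markers in the same library were 4.52 times the mean of the other WT libraries, monocyte markers 1.504 times and macrophage markers 0.506 times. Summed pan-leukocyte genes were 1.54 times, within the range of the 7 genes. How many of all genes tested were highest in that mouse was not counted. These are ratios of 1 mouse to 2 others, with no test.

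The make-up of the receptor transcripts also differed. Tlr13 made up 36.5%, 41.4% and 41.7% of the summed FPKM of the 8 receptors in WT replicates 1, 2 and 3, and 11.96%, 13.5% and 24.0% in HDCKO replicates 1, 2 and 3. The shares of Tlr7 (12.4% to 17.6% against 4.44% to 8.41%), Tlr8 (12.4% to 13.2% against 4.36% to 7.40%) and Tlr9 (3.28% to 9.49% against 0.573% to 1.47%) were higher in every HDCKO library than in any WT library. Surface receptors together held 36.5% to 59.3% in HDCKO and 41.5% to 49.3% in WT, ranges that overlap. Tlr13 was 4.87 to 9.31 times Tlr7 in WT and 0.966 to 1.36 times in HDCKO. Shares within a library do not move with its scaling, but a lower share of 1 receptor raises those of the others.

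**Figure D4:**
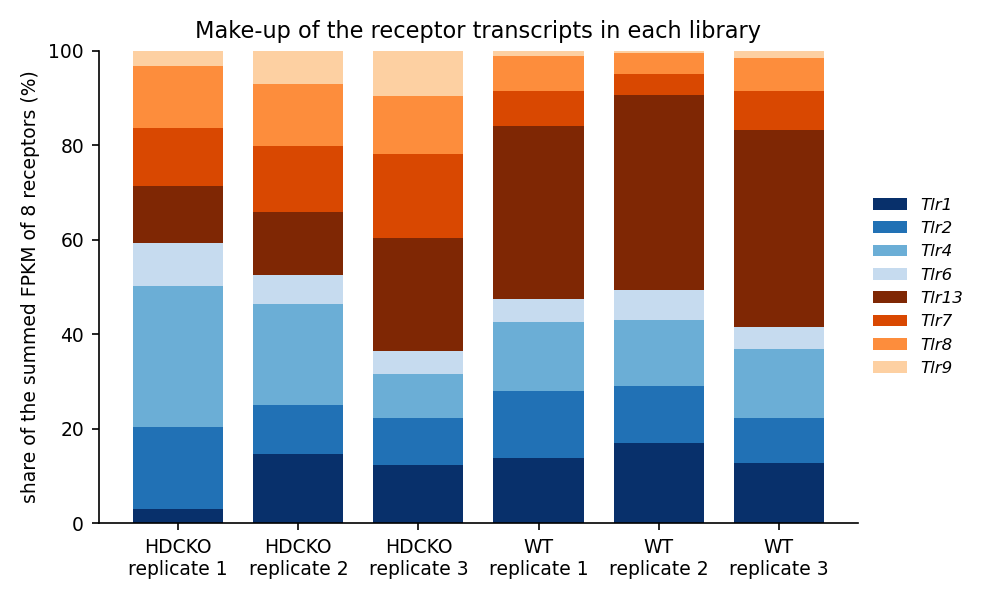
Share of each receptor in the summed FPKM of the 8 Toll-like receptors, 1 bar per library, surface receptors in blue and endosomal receptors in brown to orange. Tlr13 fills 36.5% to 41.7% of the WT bars and 11.96% to 24.0% of the HDCKO bars.

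In order of level, Cd14, Myd88 and Tlr13 led in WT, at means of 173, 71.5 and 67.4 FPKM. Tlr1, Tlr4 and Tlr2 followed at 25.0, 24.1 and 19.9 FPKM, then Tlr7, Tlr8 and Tlr6 at 10.8, 10.05 and 9.12 FPKM, and Tlr9 was last at 1.63. Ranges of neighbours in this order were apart only between Cd14 and Myd88, Tlr13 and Tlr1, Tlr2 and Tlr7, and Tlr6 and Tlr9. In HDCKO the order was Myd88, Cd14, Tlr13, Tlr7, Tlr4, Tlr8, Tlr1, Tlr2, Tlr9 and Tlr6, from 13.1 to 1.52 FPKM, and the ranges of all neighbours overlapped.

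A further comparison asked whether the receptors differed by more than leukocyte transcripts in general. The mean log2 level of the 5 pan-leukocyte genes was subtracted from every gene in each library before the same fit. On that scale 0 of 10 genes passed (limma; 1 of 10, Tlr9, at an unadjusted p under 0.05), where 0.158% of all genes passed as lower and 17.2% as higher. Cd14 was at -1.57 (95% interval -4.04 to 0.91, adjusted p = 0.278), Tlr13 at -1.44 (-3.91 to 1.03, adjusted p = 0.313) and Tlr9 at 2.63 (0.11 to 5.16, adjusted p = 0.115). The other 7 genes lay between -0.52 (Tlr1) and 0.98 (Tlr7), and the intervals were about as wide for each, so a difference of several-fold in either direction was not detectable. The outcome changed when HDCKO replicate 1 or HDCKO replicate 3 was left out. Without HDCKO replicate 1, where the pan-leukocyte genes summed to 2.71% of their WT mean, Cd14 (-2.35, adjusted p = 0.0017) and Tlr13 (-1.76, adjusted p = 0.0211) were lower than leukocyte genes and Tlr9 (2.22, adjusted p = 0.0039) higher, where 1.24% of all genes passed as lower and 33.9% as higher. HDCKO replicates 2 and 3, kept in that fit, held high lymphocyte transcripts (summed B cell markers 64.6 and 187 FPKM, at most 1.76 in WT). Pan-leukocyte genes take in lymphocytes too, and the part of lymphocytes in this base was not tested. Without HDCKO replicate 3 Tlr9 passed as higher (2.72, limma adjusted p = 0.0430), as 67.0% of all genes did.

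Other yardsticks, chosen after the data were seen, gave different pictures for different genes. Beside the 10 macrophage markers, Cd14 (-2.67, limma adjusted p = 0.0077) and Tlr13 (-2.55, adjusted p = 0.0120) passed as lower, as 1.05% of all genes did. Beside the 5 monocyte markers, Tlr7 (2.22, limma adjusted p = 0.0364), Tlr8 (2.15, adjusted p = 0.0424) and Tlr9 (3.87, adjusted p = 8.4e-04) passed as higher, as 90.5% of all genes did.

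The genes whose profile over the 6 libraries lay closest to each receptor, by Euclidean distance of centred log2 values, were named by rule as the nearest 3 of all genes tested. Cd53, a tetraspanin of leukocytes, was nearest to Tlr1 (distance 0.0719), followed by Lcp1 and Tyrobp. Skap2 was nearest to Myd88 (0.195) and second to Tlr4 (0.273), after Pla2g4a, a cytosolic phospholipase (0.268). Lgals9, a galectin, was nearest to Tlr8 (0.219) and second to Tlr7 (0.378), after Trim59 (0.366). Tlr9 lay nearest to BC147527 (0.400), Ly86, the partner of the TLR4-like receptor Cd180 (0.406), and Mndal (0.480). Tlr13 had the loosest neighbours, Hk3 (0.580), Fcgr4 (0.667) and Cd200r1 (0.687). The neighbours of Cd14 were Upp1, Lilra6 and Prg4, those of Tlr2 were Litaf, Casp4 and Soat1, and those of Tlr6 were Itprip, Plscr1 and Sat1. Among the 10 genes themselves, Tlr4 and Myd88 were the closest pair by this distance (0.380), then Tlr7 and Tlr8 (0.442), and Tlr9 and Cd14 were the farthest (5.30). The values were not scaled, so genes with changes of unlike size lie apart even where their levels rise and fall together. By Pearson correlation Tlr13 and Myd88 were the most alike pair (0.996), then Tlr4 and Myd88 (0.994).

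Around the receptors, 85 further genes of the pathway were read from 6 lists, of which 84 were in the table and 80 were tested. As lower 46 of 80 (57.5%) passed and 0 as higher, against 42.6% and 17.8% of all genes. The lower count was 28 without WT replicate 3, where 21.2% of all genes passed. Target genes and endogenous ligands had the lowest medians (-5.34 and -2.53), and adaptors and kinases the highest (-0.83). Of 10 other receptors, co-receptors and chaperones tested, 5 passed as lower (median log2 change -1.40). They included Ly96 (2.96 ± 2.20 against 17.3 ± 2.25 FPKM, SD, n = 3 each; log2 change -2.69, limma adjusted p = 0.0152) and Lbp, which carries lipopolysaccharide in serum (-1.99). The chaperones of receptor folding Hsp90b1 (-1.99) and Cnpy3 (-1.29) fell too. The count of 5 became 8 when HDCKO replicate 3 was left out, where 54.7% of all genes passed as lower. It became 3 when WT replicate 2 was left out (23.9% of all genes) and 2 when WT replicate 3 was (21.2%). Ly96 was lost in both of the latter and Cnpy3 without WT replicate 3.

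Between the receptors and the nucleus, changes were smaller. Of 21 adaptors, kinases and ubiquitin ligases, 9 passed as lower (median -0.83), near the share of all genes. They included the NF-kappaB kinase subunit Chuk (5.90 ± 1.53 against 12.5 ± 0.716 FPKM, SD, n = 3 each; log2 change -1.05), Tbk1, a kinase of interferon induction (-1.39), the TLR3 and TLR4 adaptor Ticam1 (-1.22) and Irak4, the first kinase at MyD88 (-1.85). The count was 3 without HDCKO replicate 2 or any 1 of the WT mice, where 18.8% to 23.9% of all genes passed as lower. It was 17 without HDCKO replicate 3 (54.7%), 4 with fibre and mitochondrial transcripts left out of the total (28.4%) and 4 with no filter (21.1%). Irak4 was among those lost when HDCKO replicate 2 or any 1 of the WT mice was left out, and so was Irf5 of the next list. Of 13 transcription factors 5 (38.5%) passed as lower (median -0.94), below the 42.6% of all genes: the NF-kappaB subunits Rela (-1.001) and Nfkb1 (-1.07), Irf5, which acts downstream of MyD88 (-2.10), and Atf3, a repressor induced by the receptors (-1.68), among others. The count became 11 when HDCKO replicate 3 was left out, where 54.7% of all genes passed. It became 2 when WT replicate 1 or 3 was left out (22.7% and 21.2% of all genes). It was 3 when any of the other mice was left out (18.8% to 33.2%) or under any of the 3 other scalings (26.3% to 30.7%). Nfkb1 was lost under each of the 3 other scalings (-0.56, limma adjusted p = 0.0913 with median-of-ratios) and with no filter. It was also lost when any 1 mouse but HDCKO replicate 3 was left out.

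Of 13 negative regulators 7 (53.8%) passed as lower (median -1.24) and 6 did not, where 42.6% of all genes passed. The count was 11 with HDCKO replicate 3 left out, where 54.7% of all genes passed. It was 5 with WT replicate 2 or 3 left out (23.9% and 21.2% of all genes) or with median-of-ratios scaling (26.3%). Il1rl1, the IL-33 receptor that can hold back MyD88, had 0.628 ± 0.226 FPKM in the HDCKO mice against 27.0 ± 13.9 in the WT mice (SD, n = 3 each; log2 change -4.52, limma adjusted p = 5.1e-04). The RNase gene Zc3h12a (-2.51), Irak3, a kinase-like brake on IRAK signalling (-1.97), and the NF-kappaB inhibitor Nfkbia (-1.22) also fell.

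Endogenous ligands and target genes were lower more often than all genes tested, with no test of the lists. Of 11 genes for proteins reported as endogenous ligands, 10 passed as lower (median -2.53). Among them were S100a9 (-6.70) and S100a8 (-6.59), which are also neutrophil markers, the matrix proteoglycan Vcan (-4.62) and the antimicrobial peptide gene Camp (-1.55). Camp had 0.0444 to 0.170 FPKM in HDCKO and 1.08 to 1.57 in WT, so it passed the filter on low values only through WT. With the filter at 1 FPKM, 9 ligands passed as lower, where 44.2% of all genes did. Of 12 target genes 10 passed as lower (median -5.34), led by Cxcl1 (-6.87), Cxcl2 (-7.96), Il6 (-6.92) and Ptgs2 (-5.30). The 2 that did not pass, Ccl5 (log2 change 0.97) and Cxcl10 (-0.20), had higher mean FPKM in HDCKO (8.60 and 8.14) than in WT (1.96 and 2.54). Cxcl2, Il6 and Ptgs2 averaged 0.291, 0.114 and 0.229 FPKM in HDCKO, under the filter's 0.5, so they passed it only through WT. Cxcl2 had 0.188, 0.219 and 0.466 FPKM in HDCKO replicates 1, 2 and 3. Neutrophil markers were at 0.472% to 1.10% and monocyte markers at 2.13% to 21.8% of their WT means in the same libraries, and their part in these changes was not tested.

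**Figure D5:**
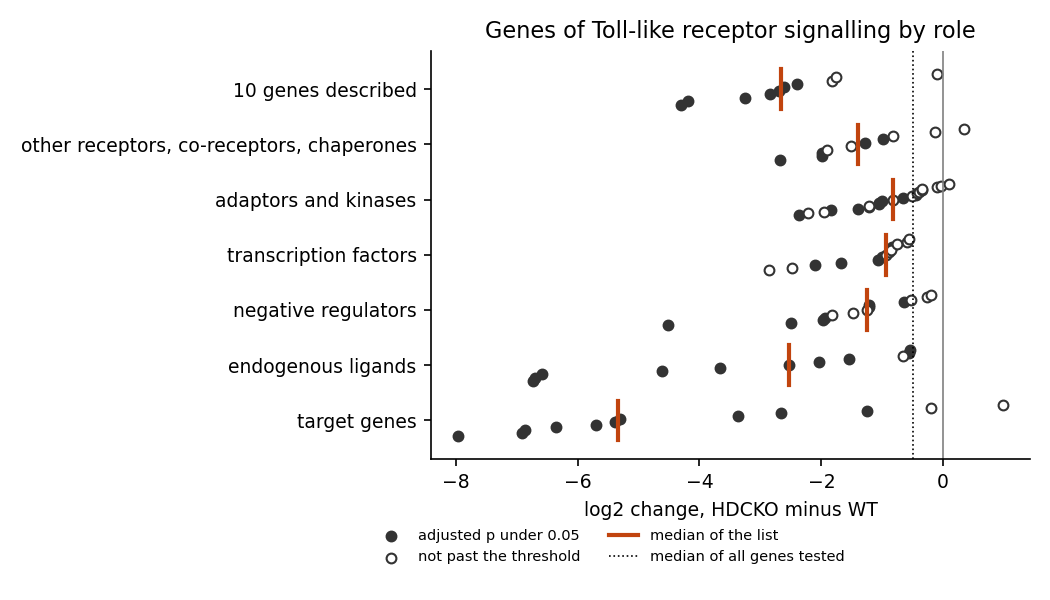
Log2 change (HDCKO minus WT) of the 10 genes and of 80 further genes by role, 1 point per gene, filled where the adjusted p is under 0.05, with the median of each list in orange and that of all genes as a dotted line at -0.50. Medians run from -0.83 for adaptors and kinases to -5.34 for target genes, and no filled point lies above 0.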

How the data were processed

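RNA was sequenced from hind limb muscle of 3 HDCKO and 3 WT mice. The deposited table holds FPKM, which the authors made from a count matrix, per the series' design text; per the submitters' processing notes the tools were FastQC 0.11.9, HISAT2 2.1.0, HTSeq 0.11.2, STAR 2.7.11b and DESeq2 1.22.2, with GRCm39. The sources used here do not say which aligner gave the table, how shared fragments were assigned or whether counting used strand.

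As FPKM are not counts, limma-trend (limma 3.58.1, R 4.3.3) was run on log2(FPKM + 0.5) for the 13288 genes averaging 0.5 FPKM or more, HDCKO against WT with no covariate, with Benjamini-Hochberg adjustment over all of them and a threshold of 0.05. Folds of low genes are damped. The fit was tested on simulated data with equal spread in both groups and few changed genes. How it behaves with a wider HDCKO spread, as here, was not tested. Depth was estimated from the value of 1 fragment. The relative fit first subtracted the mean log2 level of 5 pan-leukocyte genes. P-values test the difference between groups against the spread between mice, taken as 1 pooled spread for both groups. In the relative fit that spread includes the spread of the 5 subtracted genes. Members and lists were chosen with earlier results of these data known. Named genes were the 10 members, up to 4 of each pathway list by smallest p and the 3 nearest profiles of each member. Tlr3 was named in addition, beside Tlr9. Gene models were GENCODE on GRCm39. Alternatives were other pseudocounts, filters and scalings, sample weights, a replicate block and leaving out each mouse, with 3 more chosen after seeing the data.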

Additional observations from a re-analysis of the deposited data

How the results depend on the processing

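The same 7 genes passed as lower with a pseudocount of 0.1, with no filter or one at 1 FPKM, under all 3 other scalings, with the replicate block and without HDCKO replicate 1. Leaving out 1 mouse gave 6 to 9 genes. Over all genes tested, 5658 passed as lower, against 3496 with median-of-ratios scaling, 3769 with fibre and mitochondrial transcripts out of the total and 2502 to 7266 with 1 mouse left out. Of the pathway genes, 28 to 68 passed as lower and 0 to 1 as higher with 1 mouse left out, 70 as lower with HDCKO replicate 1 alone (a mouse chosen after seeing the data as lowest and assumed to vary like WT, so these calls support nothing), and 1 as higher with median-of-ratios scaling and 1 with sample weights. The labels do not say whether replicate numbers pair the mice, and correlations of deviations between 3 libraries per group could not settle it. They were 0.122, 0.0666 and 0.138 for libraries of the same number and -0.182 to 0.112 for the others. HDCKO replicate 2 was closer to WT replicate 1 (0.112) than to WT replicate 2. With the replicate block 5089 genes passed as lower and 2081 as higher.

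The change of Tlr9 turned sign, to 0.013 with a pseudocount of 1, 0.20 with median-of-ratios scaling, 0.10 after quantile normalization and 0.086 with fibre and mitochondrial transcripts out of the total, and ran from -0.96 to 0.68 with 1 mouse left out. Relative to pan-leukocyte genes, sample weights gave 4 genes lower and 1 higher, where 4.43% of all genes passed as lower and 87.0% as higher. The weights there were 9.10 for HDCKO replicate 2 but 0.031 and 0.171 for HDCKO replicates 1 and 3. WT replicate 3 had 16.2, WT replicate 1 2.33 and WT replicate 2 0.550. Those calls thus rested mostly on 1 HDCKO mouse. On the deposited values the weights were uneven too, at 4.68 for HDCKO replicate 2 and 0.343 and 0.170 for HDCKO replicates 1 and 3. Macrophage markers as the base gave 2 lower (1.05% of all genes) and monocyte markers 3 higher (90.5%). Leaving out 1 mouse gave 0 to 2 lower and 0 to 1 higher. The shares of all genes were then 0.0151% to 1.24% lower and 3.37% to 67.0% higher. On that scale signs turned for Tlr1 (0.71) and Tlr2 (1.13) beside monocyte markers. Beside macrophage markers they turned for Tlr4 (-1.06), Tlr6 (-0.76), Tlr7 (-0.12), Tlr8 (-0.19) and Myd88 (-0.99). With sample weights they turned for Tlr4 (-0.23), Tlr6 (-0.064) and Myd88 (-0.42), with HDCKO replicate 1 alone for Tlr2 (1.24) and Cd14 (0.0048), and with another pseudocount for Tlr2 (0.053) and Tlr4 (-0.040). With 1 mouse left out the ranges were -0.78 to 0.26 for Tlr2, -0.68 to 0.62 for Tlr4, -0.40 to 0.78 for Tlr6 and -0.57 to 0.55 for Myd88. The cause of these shifts was not tested. Depth limits Tlr1 and Tlr9 most, which rested on an estimated 17 and 19 fragments in HDCKO replicate 1.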
